A study of Mus musculus with 4 samples.

Results

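The collagen genes were followed in adult mouse cardiac mesenchymal progenitors (CMPs) before and during the transfer of reprogramming factors. A gene was counted as a collagen when its name in the array files was Col, a type number, the letter a and a chain number, and its probe was not a control spot. This found 43 genes, 68 probes and 77 spots, of 34844 gene names and 55681 probes on the array. They fall into 11 fibrillar chains, 6 basement membrane chains (all of type IV) and 26 others. Of the 43 genes, 36 were well above background on at least 1 array (10 fibrillar, 6 basement membrane and 20 other), and 29 were so on all 4. The 7 genes that were not well above background on any array were Col24a1 of the fibrillar class and Col6a4, Col6a5, Col6a6, Col9a3, Col13a1 and Col17a1 of the others.

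All 4 samples were Sca-1+ cells from the hearts of wild-type C57BL/6 adults, taken from the atria in the study's methods. Sca-1, encoded by Ly6a, is the surface antigen that marks these cells. The CMP control was untreated and labelled as day 0. The other samples were CMPs given Oct4, Sox2, Klf4 and c-Myc by Sendai virus (OSKM-CMPs) and taken at days 4, 6 and 8. By the labels, CMPs were grown on collagen I-coated dishes with 10% FBS and 40 ng/ml bFGF, and the study's methods give a lower bFGF dose. In those methods the transduced cells were on Geltrex, a basement membrane extract that itself contains collagen proteins. Their medium after transduction had serum replacement and a higher share of FBS than the labels give, and no bFGF is listed for it. The arrays read mouse RNA, not the protein of the coating. The coating and medium of the control itself at harvest were not stated in the sources used here. The factors and the time in culture differed together between the control and the other samples, and the coating and medium may have too. These cannot be told apart. No virus without the factors and no later control was measured. The labels name no separate cultures or animals, and whether animals were pooled was not given in the sources used here.

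Each condition had 1 array, and the 4 arrays were on 1 slide in 1 scan. There was therefore no replicate and no test between conditions, no p-value is given, and precision is limited by having so few arrays. Values are log2 processed Cy3 signals with the 75th percentile of the array set to 0. Which part of its transcript a probe covers was not analysed here. A level of a probe can be compared across arrays, not with the level of another probe. Errors (±) are 1 SD from the error model of the array software, combined over the spots and probes of a gene as if these were independent. They cover neither cultures nor RNA preparation, nor disagreement between the probes of a gene. For a difference between arrays, the median error over genes was 0.20 on the log2 scale. A change of at least 2-fold (1 on the log2 scale) is called past the threshold here. Where a gene was not well above background on 1 of the arrays compared, its change is a bound, written as at least N-fold. No spot was saturated, and each array had 56.6% to 59.6% of its probes well above background. In RNA from a whole culture, fewer cells of a type and less RNA per cell cannot be told apart.

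Collagens are the main structural proteins of the extracellular matrix, built from chains with glycine repeated all along a triple helix. Fibrillar collagens form the rope-like fibrils of connective tissue, type IV forms the sheet under epithelia, endothelia and around fat and muscle cells, and the others decorate fibrils, anchor sheets or form networks and filaments. Cardiac fibroblasts and related progenitors are a main source of collagen in the heart, and adipocytes lay down type IV and type VI collagens around themselves.

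The promoters of Col4a1 and Col4a2 are shown first, because these genes lie head to head and their levels moved together in every comparison described next. The windows run from 250 bases before to 50 bases after the start site in RefSeq on GRCm38.p6. Col4a1 is on the minus strand at chr8:11312777-11313076 and Col4a2 on the plus strand at chr8:11312555-11312854, with start sites 21 bases apart. Capitals mark the 78 bases that both windows share, each the reverse complement of the other.
Col4a1: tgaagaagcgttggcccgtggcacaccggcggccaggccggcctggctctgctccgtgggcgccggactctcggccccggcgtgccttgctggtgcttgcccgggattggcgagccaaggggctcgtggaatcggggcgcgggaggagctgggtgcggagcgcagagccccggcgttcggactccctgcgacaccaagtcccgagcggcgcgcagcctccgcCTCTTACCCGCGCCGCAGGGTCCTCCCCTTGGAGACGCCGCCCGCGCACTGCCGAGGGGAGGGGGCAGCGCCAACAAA
Col4a2: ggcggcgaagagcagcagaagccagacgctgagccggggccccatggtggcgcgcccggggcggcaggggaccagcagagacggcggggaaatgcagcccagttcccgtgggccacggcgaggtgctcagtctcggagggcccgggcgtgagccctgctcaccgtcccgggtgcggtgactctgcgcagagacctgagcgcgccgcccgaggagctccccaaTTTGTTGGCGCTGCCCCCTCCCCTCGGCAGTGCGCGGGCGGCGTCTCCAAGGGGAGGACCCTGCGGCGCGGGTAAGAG
The windows of Col8a1 (chr16:57754688-57754987, minus strand) and Col6a3 (chr1:90843922-90844221, minus strand) are shown because, by measured change, these genes had the largest fall and the largest rise at day 8 among the collagens. Capitals mark GGGCGG or CCAAT on either strand.
Col8a1: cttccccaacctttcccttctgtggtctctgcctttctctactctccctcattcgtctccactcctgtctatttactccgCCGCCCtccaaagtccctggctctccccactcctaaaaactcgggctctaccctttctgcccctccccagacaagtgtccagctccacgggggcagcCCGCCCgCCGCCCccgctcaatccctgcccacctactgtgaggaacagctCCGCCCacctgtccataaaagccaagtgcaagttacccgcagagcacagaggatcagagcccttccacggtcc
Col6a3: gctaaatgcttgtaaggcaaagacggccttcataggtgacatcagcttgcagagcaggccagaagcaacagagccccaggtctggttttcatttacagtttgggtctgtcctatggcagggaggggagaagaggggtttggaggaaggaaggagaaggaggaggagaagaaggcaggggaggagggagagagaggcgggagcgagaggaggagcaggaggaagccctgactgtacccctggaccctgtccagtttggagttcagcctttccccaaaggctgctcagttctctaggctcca
The window of Col8a1 held GGGCGG 4 times, all on the opposite strand, and that of Col6a3 held neither motif. The Col4a1 window held GGGCGG 1 time and the Col4a2 window 3 times, and each held CCAAT 1 time.

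Over all measured collagens, the falls outnumbered the rises. At day 8, 10 of 35 collagen genes were at least 2-fold lower than in the control (28.6%), beside 9.54% of 24060 genes measured in the same comparison. At least 2-fold higher were 4 of 35 (11.4%), beside 12.2% of all genes, so the share of rises was near the background. At day 4, 11 of 35 were lower (31.4%, background 7.35%) and 2 were higher (5.71%, background 9.31%). At day 6, 10 of 36 were lower (27.8%, background 9.99%) and 4 were higher (11.1%, background 10.5%). The 3 comparisons share the control array, so their counts are not independent of each other. With 1 array per condition, no difference between the collagens and the other genes was tested.

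The 9 genes Col4a1, Col4a2, Col5a2, Col5a3, Col7a1, Col8a1, Col12a1, Col14a1 and Col28a1 were at least 2-fold lower at all of days 4, 6 and 8. They are 9 of the 35 collagens measured in each of these comparisons, where 5.92% of all 23040 such genes were lower on all 3 days, and they belong to all 3 classes. Col6a3 and Col18a1 were the 2 genes at least 2-fold higher on all 3 days (background 6.87%). Of the 29 collagens well above background on all 4 arrays, 13 were within 2-fold of the control on all 3 days, among them both chains of type I, beside 76.3% of all such genes. For 6 more, Col4a3, Col9a1, Col10a1, Col11a2, Col19a1 and Col25a1, no change passed 2-fold but at least 1 was a bound or was not measured, so their size of change is not known on every day. The plot of every chain over the days shows these courses.

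**Figure D1:**
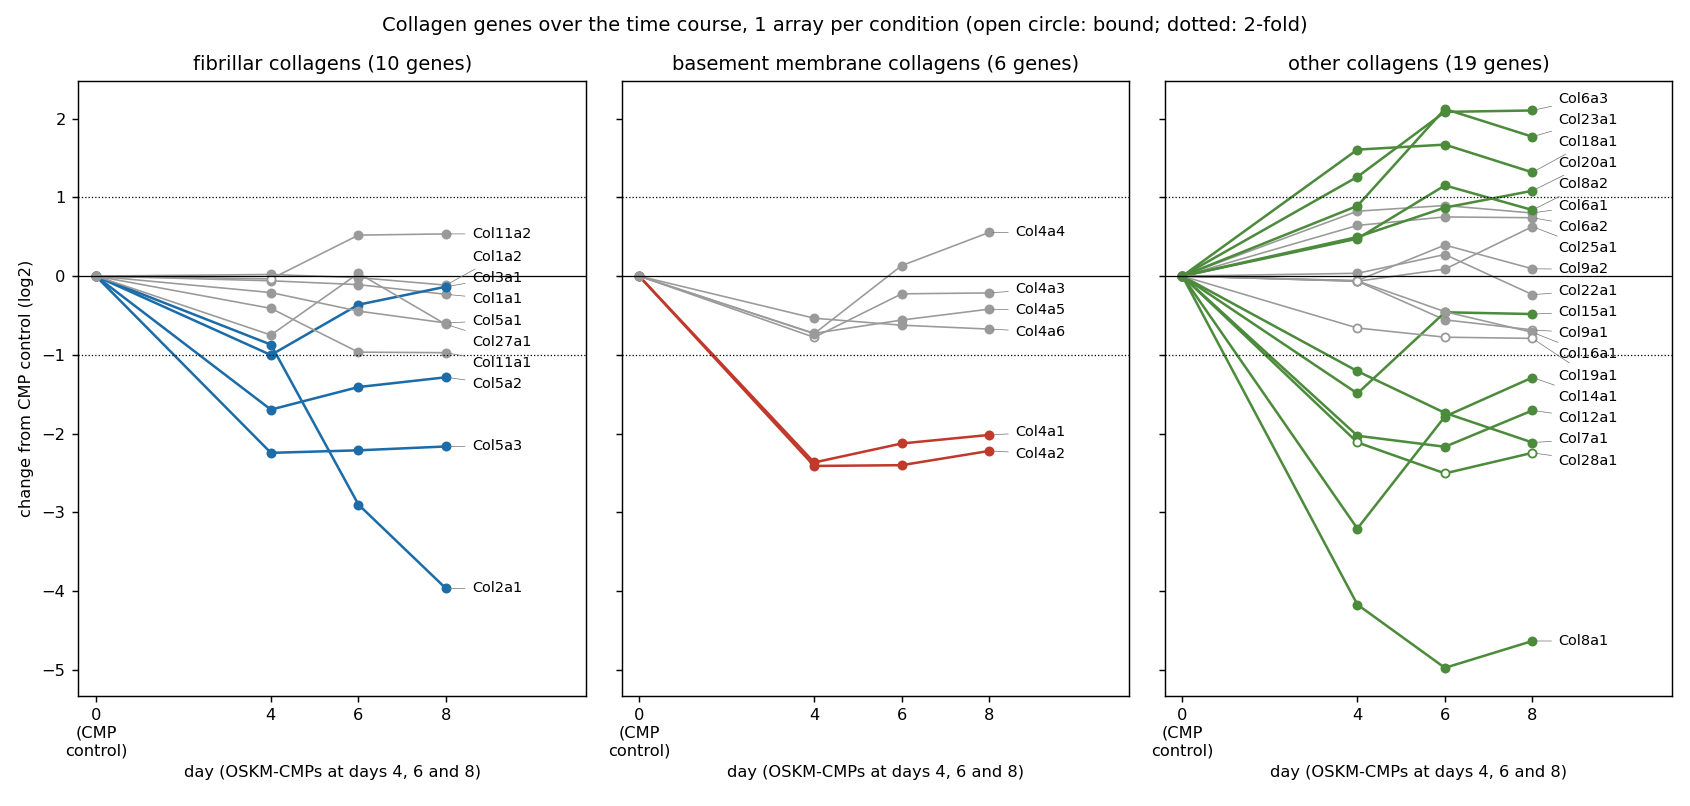
Change from CMP control in log2 units (vertical axis) against day (horizontal axis) for 10 fibrillar, 6 basement membrane and 19 other collagen genes, 1 array per condition. Coloured lines are genes that passed 2-fold (dotted lines) on at least 1 day, grey lines are the rest and open circles are bounds. Col4a1 and Col4a2 run side by side, Col2a1 falls further at each later day and Col8a1 lies lowest.

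Among the fibrillar collagens, the major chains of type I hardly moved, while types II and V were lower. Col1a1 and Col1a2 encode the chains of type I, the main collagen of scar and tendon. Col1a1 was at 8.14 in the CMP control, 8.08 on day 4, 8.03 on day 6 and 7.91 on day 8. Col1a2 was at 9.14, 9.16, 9.12 and 9.03 in the same order. The 4 levels of each gene lie close together, and at day 8 the difference from the control was -0.23 ± 0.20 for Col1a1 and -0.12 ± 0.20 for Col1a2. The sign of both turned under quantile normalization, to 0.09 for Col1a1 and 0.06 for Col1a2, so no direction is given for type I. Col3a1, which encodes the type III chain of distensible tissue and early scar, had 8.17 in the control, 7.17 on day 4, 7.81 on day 6 and 8.04 on day 8. It was low on the day 4 array alone. The fall at day 4 was 1.00 ± 0.20, at the threshold, and the difference from the control at day 8 was -0.13 ± 0.20.

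Type V collagen forms the core of type I fibrils and limits their thickness. Its 3 chains moved by different amounts. Col5a1 was at 6.00 in the control and 5.79, 5.56 and 5.41 at days 4, 6 and 8. Col5a2, its usual partner chain, was at 2.14 and then 0.44, 0.73 and 0.85. Col5a3, a less widespread chain, was at 3.72 and then 1.48, 1.51 and 1.56. The control was the highest of the 4 arrays for each chain. At day 8, Col5a2 was 2.44-fold lower (log2 -1.28 ± 0.20) and Col5a3 4.48-fold lower (log2 -2.16 ± 0.20), while the change of Col5a1, -0.60 ± 0.20, was within 2-fold. The change of Col5a1 differed from that of Col5a3 by 1.57 ± 0.29 at day 8. Col5a2 and Col3a1 are neighbours on chromosome 1 in RefSeq. Their changes differed by 0.69 ± 0.29 at day 4 and 1.15 ± 0.29 at day 8, as Col3a1 came back to the control level and Col5a2 did not.

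Col2a1, the chain of cartilage type II collagen, took another course. Its level was 3.80 in the CMP control, 2.93 on day 4, 0.90 on day 6 and -0.17 on day 8, on a probe at chr15:97806071-97806130 (mm9). Each array was lower than the one before. The change was -0.87 ± 0.20 by day 4, -2.90 ± 0.20 by day 6 and -3.97 ± 0.20 by day 8, so that 21.9% of the day 8 change was present at day 4. Col2a1 was the 1 collagen past 2-fold between days 6 and 8. Of 4 measured cartilage markers, 1 was at least 2-fold lower at day 8 (background 9.54%). That marker was Comp, a cartilage and tendon matrix protein, with changes of -3.12 at day 4 and -3.16 at day 8. At day 8, Acan, the cartilage proteoglycan, changed by -0.60 and Sox9, the regulator of Col2a1, by -0.43. Lect1 went the other way. It had no control signal well above background, and was at least 2.17-fold higher at day 6 and at least 1.34-fold higher at day 8. The summed level of the list was 3.30 in the control and between 2.57 and 2.69 on the other arrays. Here and below, a summed level is the log2 of the added signals of a list, so it mostly follows the brightest genes. The part of these markers in the fall of Col2a1 was not tested.

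Type XI collagen joins type II in cartilage fibrils. Col11a1 was at 1.20 in the control, 0.79 at day 4 and 0.23 at days 6 and 8, which is a difference of -0.97 ± 0.20 at day 8, just inside 2-fold, and -1.24 with arrays scaled to their median. Col11a2 was dim on all arrays, with -4.84 in the control, no signal well above background at day 4, and -4.32 and -4.31 at days 6 and 8. Col27a1, a fibrillar chain of developing cartilage, was at -3.01, -3.76, -2.97 and -3.62 and stayed within 2-fold. On each of days 4, 6 and 8, 3 of 10 fibrillar genes were at least 2-fold lower (background 7.35%, 9.99% and 9.54%). None was higher (background 9.31%, 10.5% and 12.2%), and in so few genes no rise is near that background. The lower genes were not the same on each day. Col5a2 and Col5a3 were lower on all of them, Col3a1 at day 4 alone and Col2a1 at days 6 and 8. The fibrillar median was -0.58 on day 4, -0.40 on day 6 and -0.60 on day 8, where the median of all genes was -0.01, -0.05 and -0.01.

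**Figure D2:**
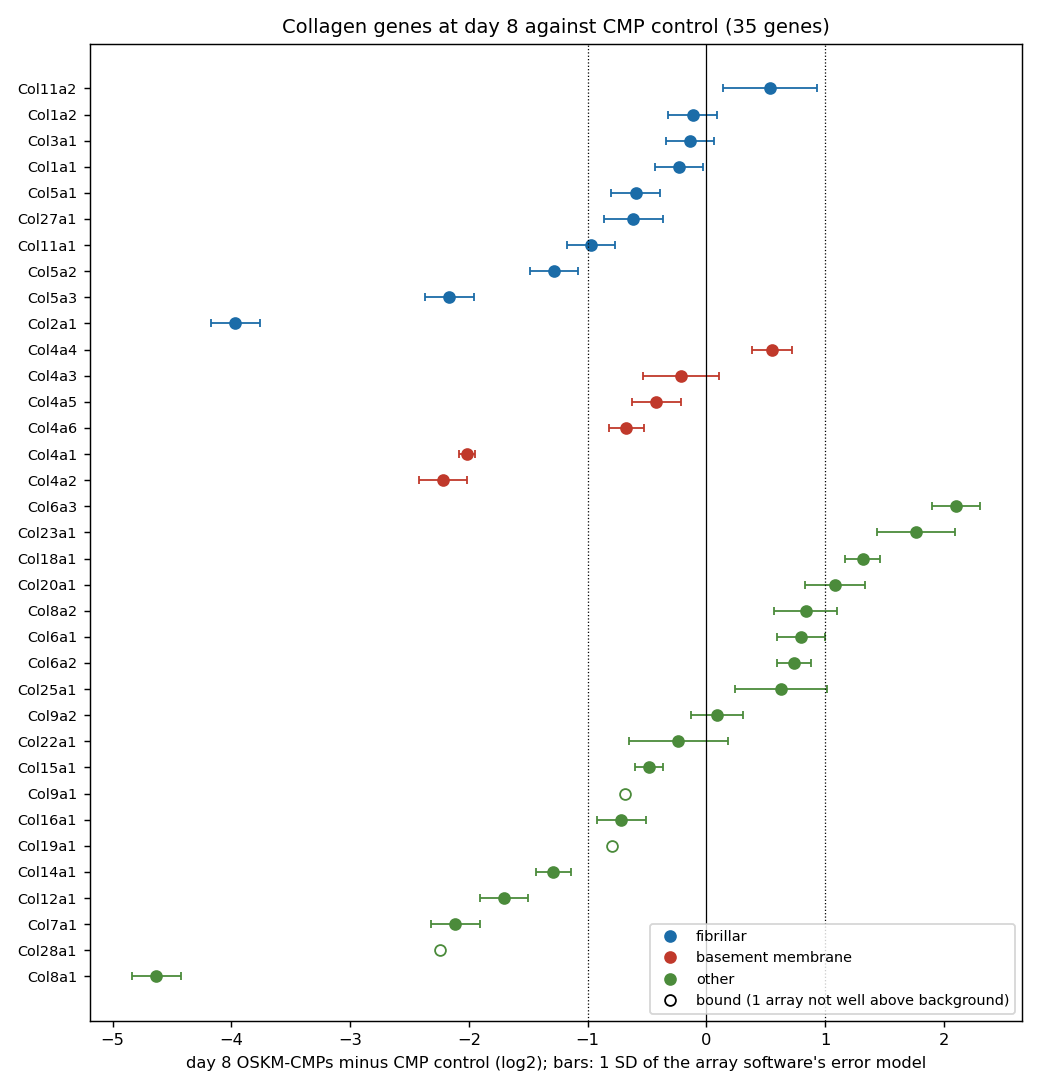
Day 8 OSKM-CMPs minus CMP control in log2 units (horizontal axis) for the 35 collagen genes measured in this comparison, by class and size of change; bars are 1 SD of the array software's error model and open circles are bounds without a bar. Dotted lines mark 2-fold, with 10 genes at or below -1 and 4 at or above 1.

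In the basement membrane class, the 2 common chains fell together and Col4a4, Col4a5 and Col4a6 stayed within 2-fold. Col4a1 and Col4a2 encode the chains of the type IV trimer found in nearly all basement membranes. Col4a1 was measured on 10 spots of 1 probe at chr8:11199009-11199068 (mm9). The spot means were 5.82 ± 0.04 (SD, n = 10 spots) in the control, 3.45 ± 0.05 on day 4, 3.69 ± 0.03 on day 6 and 3.80 ± 0.03 on day 8. The lowest control spot, 5.76, was above the highest spot of any later array, 3.88, but spots of 1 array share its RNA and are not replicates of the condition. Col4a2, at chr8:11448840-11448899 (mm9), was at 5.88, 3.47, 3.48 and 3.66. Both genes were highest in the control and had their lowest value at day 4. At day 8, Col4a1 was 4.05-fold lower (log2 -2.02 ± 0.06) and Col4a2 4.66-fold lower (log2 -2.22 ± 0.20). Their changes differed by 0.04 ± 0.21 on day 4, 0.28 ± 0.21 on day 6 and 0.20 ± 0.21 on day 8.

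The chains Col4a3, Col4a4, Col4a5 and Col4a6 form the type IV trimers of kidney, lung and some other sheets. Col4a5 was at 3.88, 3.15, 3.32 and 3.46, and at day 8 its change was -0.42 ± 0.20. Col4a6, its head-to-head neighbour on the X chromosome, had a mean over 2 probes of 0.76, 0.22, 0.13 and 0.08, and its change was -0.67 ± 0.14. Both stayed closer to the control than Col4a1, whose change differed from that of Col4a5 by -1.60 ± 0.21 at day 8. Col4a3 was at -4.40 in the control, not well above background at day 4, and at -4.63 and -4.61 later. Col4a4, the neighbour of Col4a3 on chromosome 1, was at -2.64, -3.37, -2.51 and -2.09 as the mean of 2 probes. It was the 1 basement membrane chain above the control at day 8, by 0.55 ± 0.17, and it was 1.29 higher than at day 4. The median of the class was -0.75 on day 4, -0.59 on day 6 and -0.55 on day 8.

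Endothelial cells are rich in Col4a1 and Col4a2. Of 6 endothelial markers, 3 were at least 2-fold lower at day 8 (background 9.54%) and none was higher (background 12.2%). Cdh5, the endothelial cadherin, was at -1.74 in the control and not well above background later, at least 11.9-fold lower at day 8. Emcn, an endothelial sialomucin, was at -2.92 and then not well above background, at least 5.24-fold lower, and Tek, the angiopoietin receptor, fell by 2.70 ± 0.27. Pecam1 and Kdr, which endothelial cells also carry, differed from the control by -0.27 to 0.10 at day 8, and Vwf was higher by 0.78. The summed level of the list was 0.94 in the control and between 0.17 and 0.30 on the later arrays. Whether the fall of the type IV chains came from such cells was not tested.

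**Figure D3:**
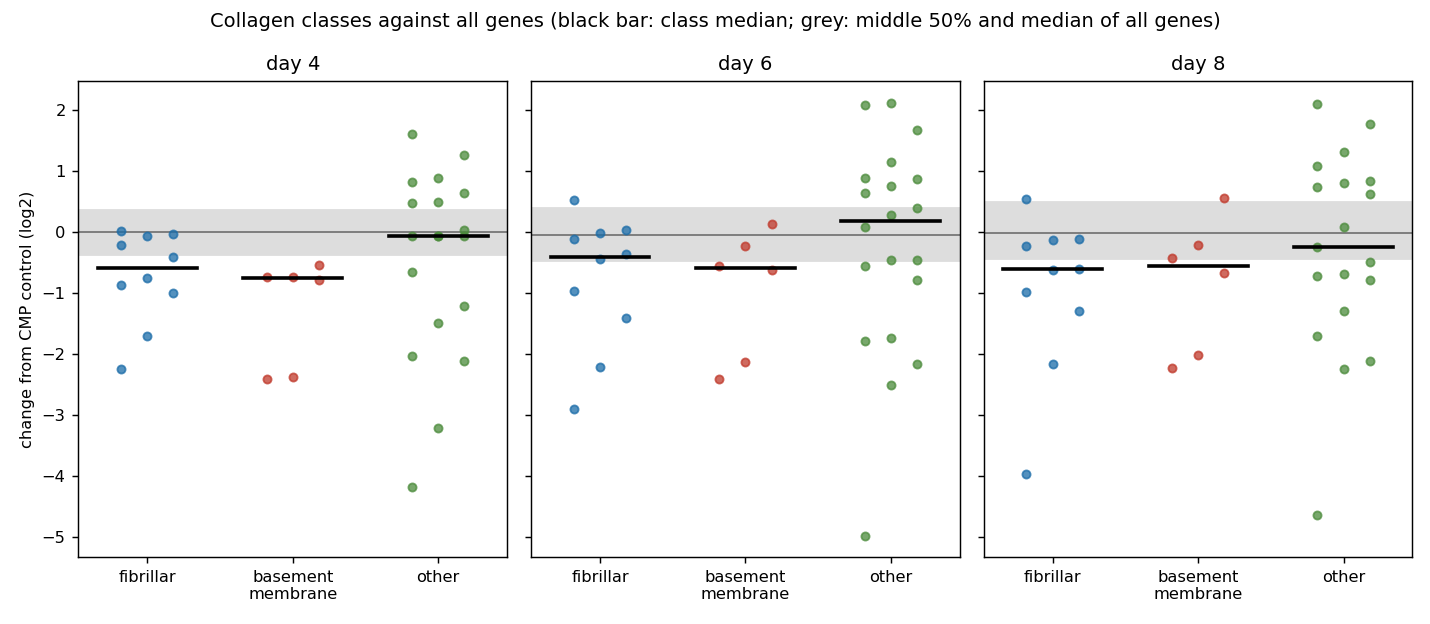
Change from CMP control in log2 units (vertical axis) at days 4, 6 and 8 for the 3 collagen classes, with 1 point per gene (bounds included as points) and a black bar at the class median. The grey band and line are the middle 50% and the median of all genes measured; the fibrillar and basement membrane medians lie below 0 on every day and the points of the other class spread widely on both sides.

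The other class held both the largest fall and the largest rise. At day 8, 5 of its 19 genes measured in that comparison were at least 2-fold lower (background 9.54%) and 4 higher (background 12.2%). Its median was -0.06 on day 4, 0.18 on day 6 and -0.24 on day 8. The sign of the day 8 median turned when the filter on dim probes or the rule for several probes was changed, so the class as a whole has no direction.

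Type VIII collagen is a short-chain network collagen of vessel walls and of the matrix under some endothelia. Col8a1 was at 4.69 in the control, 0.52 on day 4, -0.28 on day 6 and 0.06 on day 8, on a probe at chr16:57624471-57624530 (mm9). The control stood far above the 3 OSKM-CMP arrays. Col8a1 was 24.8-fold lower at day 8 (log2 -4.63 ± 0.20), and 90.0% of that change was present at day 4. Col8a2, the other chain of the type, was represented by 2 probes that did not move alike. The first was at -2.71, -1.58, -0.95 and -0.65, 2.06 higher by day 8. The other was at -4.84 in the control and -4.30 at day 6 and was not well above background at days 4 and 8. The mean of both was higher by 1.15 ± 0.22 at day 6 and by 0.84 ± 0.26 at day 8. The change of Col8a1 differed from that of Col8a2 by -5.47 ± 0.33 at day 8.

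Markers of smooth muscle and myofibroblasts, the contractile cells that make matrix in scars, were read on the same arrays. Of 5 measured markers, 3 were at least 2-fold lower at day 8 (background 9.54%) and 2 were not. The change was -5.09 ± 0.06 for Acta2, the smooth muscle actin, -4.78 ± 0.20 for Tagln, an actin-binding protein, and -5.24 ± 0.22 for Cnn1, a calponin. The other 2 were higher. Cspg4 was higher by 1.13 at day 4 and by 0.57 at day 8. Des had no control signal well above background and was at least 1.86-fold higher at day 8. Myh11 was not measured. The summed level of the list was 9.19 in the control, 5.47 on day 4, 4.70 on day 6 and 4.60 on day 8. The part of these markers' cells in the falls of Col8a1 and of the type V and XII chains was not tested.

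The fibril-associated collagens bind to the surface of fibrils. Col12a1, made in tendon and in cells under tension, was at 1.69, -0.33, -0.47 and -0.01, and at day 8 it was 3.26-fold lower (log2 -1.71 ± 0.20). Col14a1, a relative that regulates fibril growth, had 2 probes. The brighter was at 5.85 in the control, 2.44 on day 4, 4.03 on day 6 and 4.55 on day 8, and the other at 2.36, -0.65, 0.60 and 1.08. Both probes gave the lowest value at day 4 and a partial return. The gene's change was -3.21 ± 0.14 at day 4 and -1.29 ± 0.14 at day 8, a recovery of 1.92 between those arrays. Col16a1 had 3 probes well above background on all arrays that differed from the control by -0.57 to 0.01 at day 8. Another probe was well above background in the control alone. Col20a1 was dim, at -4.48, -3.99, -3.61 and -3.40. Its mean was past 2-fold at day 8 (log2 1.08 ± 0.25), but of its 2 probes the one well above background in the control was higher by 0.52. Under quantile normalization the gene's change was 0.83, within 2-fold.

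Type VI collagen forms beaded filaments around cells and is abundant in fat. All 3 measured chains were higher in OSKM-CMPs. Col6a3, the largest chain, was at 3.83 in the control, 5.09 on day 4, 5.91 on day 6 and 5.93 on day 8, on a probe at chr1:92663663-92663722 (mm9). It was above the control on each later array and level between days 6 and 8. The rise at day 8 was 4.29-fold (log2 2.10 ± 0.20), with 59.9% of it present at day 4. Col6a1 was at 7.30, 8.13, 8.20 and 8.10, 1.74-fold higher at day 8 (log2 0.80 ± 0.20, or 1.11 under quantile normalization). Col6a2, its neighbour on chromosome 10, was higher by 0.74 ± 0.14 as the mean of 2 probes that were higher by 0.67 and 0.81. The changes of Col6a1 and Col6a2 differed by 0.06 ± 0.25 and those of Col6a1 and Col6a3 by -1.30 ± 0.29, so Col6a3 rose more than its partners.

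Most of the fat cell markers rose over the same arrays. Of 6 adipocyte markers, 5 were at least 2-fold higher at day 8 (background 12.2%). Adipoq, Plin1, Cfd and Lep were not well above background in the control. Adipoq, which encodes the hormone adiponectin, was then at -1.51, 4.57 and 5.86 at days 4, 6 and 8. Plin1, a lipid droplet coat protein, was at -2.68, 3.50 and 4.12. The summed level of the list was 1.59 in the control, 4.47 on day 4, 7.01 on day 6 and 8.28 on day 8. The part of these cells in the rise of type VI was not tested.

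Types XV and XVIII, the multiplexins, are proteoglycan collagens next to basement membranes, and they went opposite ways at day 4. Col18a1, the source of endostatin, had 2 probes at 4.44, 5.80, 5.86 and 5.50 and at 3.76, 5.60, 5.67 and 5.33. Both were higher on every OSKM-CMP array. The gene was 2.49-fold higher at day 8 (log2 1.32 ± 0.14). Col15a1 had a mean over 3 probes of 0.37, -1.12, -0.09 and -0.11. It was low at day 4 (-1.49 ± 0.12) and within 2-fold at days 6 and 8. Its change at day 4 differed from that of Col18a1 by -3.10 ± 0.19. The differences of the 3 Col15a1 probes from the control at day 8 were -0.82, -0.67 and 0.04, so its direction there depends on the probe.

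The remaining chains past 2-fold were Col7a1, Col23a1 and Col28a1. Col7a1 makes the anchoring fibrils that tie skin epithelium to the dermis. It was at 1.31, 0.10, -0.43 and -0.81, each array lower than the one before, and 4.33-fold lower at day 8 (log2 -2.11 ± 0.20). Col23a1, a transmembrane collagen, was dim and rose, at -5.11, -4.22, -2.99 and -3.34 as the mean of 3 probes. Its rise at day 8 was 1.77 ± 0.33, and the 2 probes well above background in the control and at day 8 rose by 2.03 and 2.21. With normexp and quantile normalization the change was 0.50. Col28a1 was at -3.07 in the control and not well above background on any later array, which is at least 4.32-fold lower on day 4, 5.68-fold on day 6 and 4.74-fold on day 8. Col9a1, Col9a2, Col10a1, Col19a1, Col22a1 and Col25a1 were dim, with levels no higher than -2.49 on any array, and none had a change or bound past 2-fold. Those of Col19a1 and Col10a1 against the control were bounds, at least 1.73-fold lower at day 8 and at least 1.56-fold higher at day 6, so a larger change is possible.

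**Figure D4:**
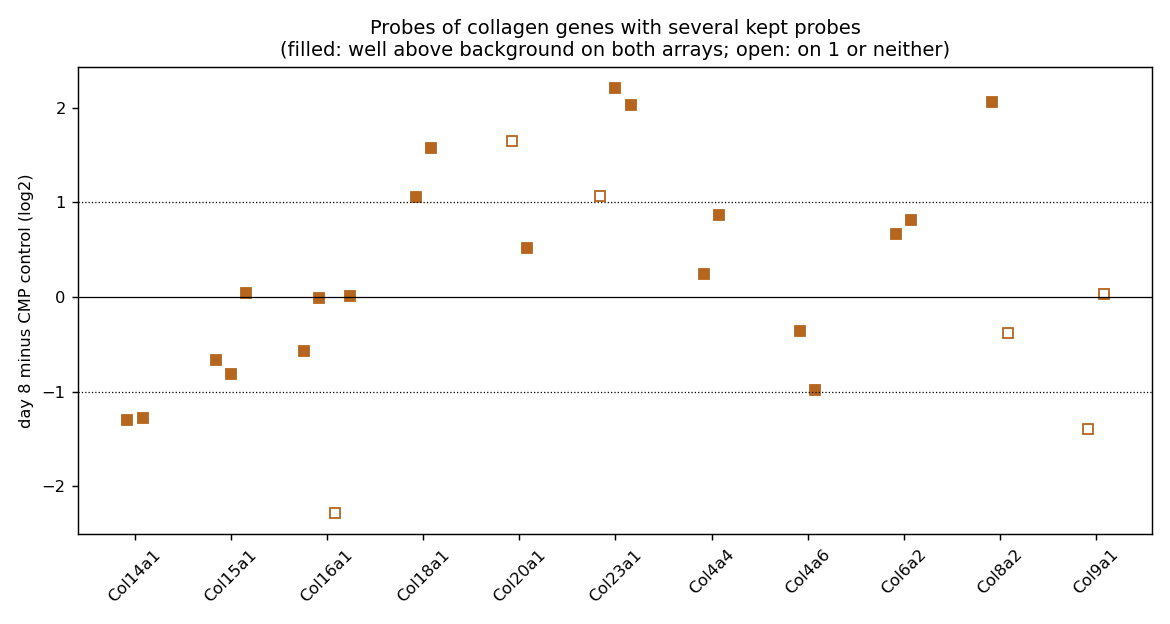
Day 8 minus CMP control in log2 units (vertical axis) for each kept probe of the 11 collagen genes with several kept probes; filled squares were well above background on both arrays and open squares on 1 or neither. Filled squares of 1 gene lie within 1 log2 unit of each other.

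Of the 11 genes with several kept probes, none had probes that moved at least 2-fold in opposite directions at day 8. In the 8 genes with several probes well above background on both arrays, the probes differed by less than 1 on the log2 scale, with a median spread of 0.54.

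Fewer collagens, and fewer of all genes, passed 2-fold between OSKM-CMP arrays than against the control. Between days 4 and 8, 1 of 33 collagens was at least 2-fold lower (3.03%, background 2.85%) and 3 were higher (9.09%, background 3.71%). The lower one was Col2a1 and the higher ones were Col4a4, Col14a1 and Col15a1. The mean of Col15a1, 1.01, was at the threshold, and its 3 probes were higher by 0.91, 0.95 and 1.17. For Col4a4 the call rests on a probe not well above background at day 4, with a difference of 1.86, and the difference of its probe above background on both arrays was 0.72, within 2-fold. Between days 4 and 6, 1 of 34 was lower (2.94%, background 1.92%) and 3 were higher (8.82%, background 1.84%). These were Col2a1 below and Col14a1, Col15a1 and Col23a1 above, with Col15a1 again near the threshold at 1.03. Between days 6 and 8, Col2a1 alone was lower (2.94% of 34, background 0.62%) and none was higher (background 1.95%). The medians between days 4 and 8 were -0.03 for the fibrillar, 0.33 for the basement membrane and 0.15 for the other class, and 0 for all genes.

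Collagen chains are hydroxylated, folded and exported through the endoplasmic reticulum before they are secreted. Of 24 measured genes for these steps, 6 were at least 2-fold lower at day 8 and none was higher, with a median of -0.47 (over all genes 9.54% were lower and 12.2% higher, with a median of -0.01). The prolyl 4-hydroxylases stabilise the triple helix. P4ha1 was at 1.91 in the control and -0.89, -0.53 and -0.0047 at days 4, 6 and 8, a change of -1.91 ± 0.14 at day 8. P4ha3 was at 1.42, 0.17, -0.77 and -0.99, a change of -2.42 ± 0.14. P4ha2 was at 3.57, 3.07, 3.40 and 3.48, a difference of -0.09 ± 0.20 at day 8. P4ha1 and P4ha3 had the control as their highest array by a wide margin, and P4ha2 came back to the control level. Serpinh1, the collagen chaperone Hsp47, was at 7.53, 6.64, 6.65 and 6.72, a change of -0.81 ± 0.20, within 2-fold. Plod3, which hydroxylates lysines, fell by 1.33 ± 0.20. Plod2, its relative for cross-linked scar collagen, was higher by 0.26 ± 0.20, Fkbp7, a folding factor, by 0.59 ± 0.20 and Mia3, an export receptor for procollagen, by 0.22 ± 0.14.

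Outside the cell, propeptides are cut off, fibrils are arranged by small proteoglycans and chains are cross-linked. Of 22 measured genes for these steps, 7 were at least 2-fold lower (background 9.54%) and 6 higher (background 12.2%) at day 8, with a median of -0.55 beside -0.01 for all genes. Of the lysyl oxidase family, which cross-links chains, Lox, Loxl1 and Loxl2 were at least 2-fold lower at day 8 and Loxl3 and Loxl4 were not. Lox, lysyl oxidase, was at 3.46 in the control and 1.33, 1.28 and 1.54 later, a change of -1.92 ± 0.14 at day 8. Loxl2 fell by 2.30 ± 0.12 and Loxl1 fell by 1.09 ± 0.14. The small leucine-rich proteoglycans, which bind fibrils and set their width, split. Fmod (3.28, -0.16, 0.81 and 0.76) fell by 2.52 ± 0.20 and Prelp fell by 2.11 ± 0.21. Bgn fell by 1.80 ± 0.20. Lum was at 2.83, 5.95, 7.24 and 7.66 and was higher by 4.83 ± 0.20. Ogn was higher by 3.65 ± 0.20 and Dcn by 3.06 ± 0.20, and Kera, not well above background in the control, was at least 46.0-fold higher. Within this family, therefore, Fmod, Prelp and Bgn had the control as their highest array, and Lum, Ogn, Dcn and Kera had it as their lowest.

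Collagen receptors hold cells to the fibrils. Of 11 measured genes of this list, 4 were at least 2-fold lower (background 9.54%) and 1 higher (background 12.2%) at day 8, with a median of -0.78 beside -0.01 for all genes. The 1 higher gene is near the background. Itga11, the integrin chain for fibrillar collagen on fibroblasts, was at 5.96 in the control and 1.38, 1.29 and 0.87 later. It had the largest change of its list at day 8, -5.10 ± 0.20. Itgb1, its partner chain, fell by 1.35 ± 0.14 and Itga1, the chain that prefers type IV, fell by 1.20 ± 0.15. Itga10, a chain known from cartilage, was higher by 1.84 ± 0.15 and Gpr56, an adhesion receptor for type III, by 0.85 ± 0.30. Mrc2, the collagen uptake receptor, was at 0.54 and 0.53 in the control and at day 8. The discoidin domain receptors, which signal when bound to collagen, stayed within 2-fold. The change was -0.80 ± 0.20 for Ddr1 and -0.31 ± 0.14 for Ddr2.

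**Figure D5:**
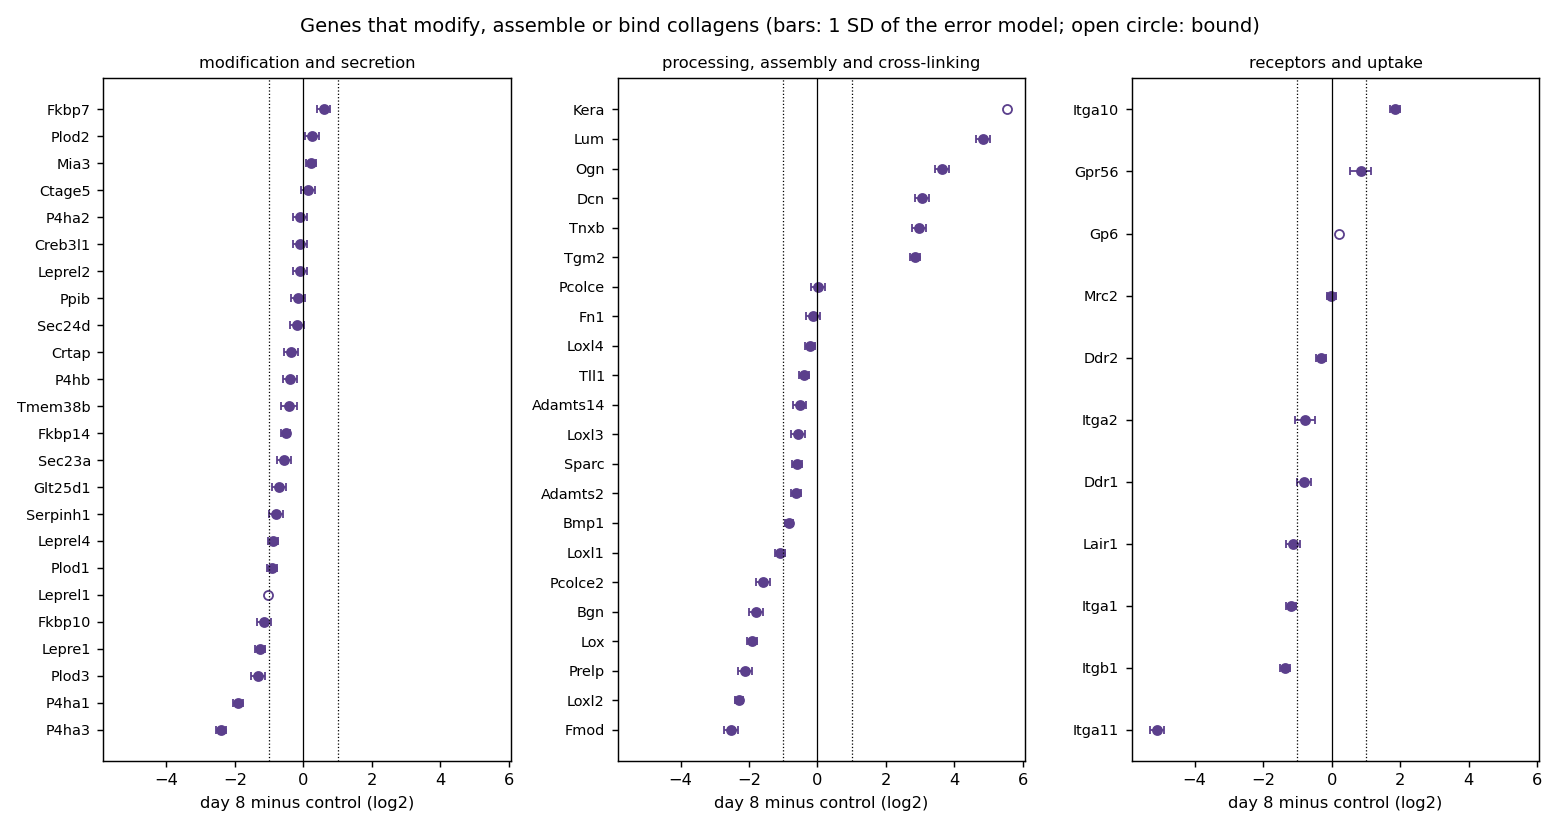
Day 8 minus CMP control in log2 units (horizontal axis) for genes that modify and secrete collagens (24 genes), process, assemble and cross-link them (22) and bind or take them up (11); bars are 1 SD of the error model, open circles are bounds and dotted lines mark 2-fold. Lum, Ogn and Dcn stand at the high end and Itga11 at the low end.

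The promoter windows were searched for 4 short motifs. RefSeq windows were found for 29 of the 36 measured genes, 32 windows in all. A gene counted if any of its windows held a motif, whereas the share of all windows counts each window once. GGGCGG, searched on both strands, was in the windows of 19 of the 29 genes, and in 35.7% of all 32851 windows of this length. It was in 5 of 6 genes that were at least 2-fold lower at day 8, in 2 of 4 that were higher and in 12 of the other 19. CCAAT was in 11 of 29 genes and 37.4% of all windows, and it was in 4 of the 6, 1 of the 4 and 6 of the 19. CACCC was in 21 of 29 genes and 57.5% of all windows. CACGTG, found in 7.15% of all windows, was in none of the collagen windows. Col4a1 and Col4a2 are both among the lower genes and share part of their windows, so they count as separate genes but not as separate sequences. The matches describe the letters of these windows only.

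For Sca-1+ and mesenchymal cells, 9 markers were read, all well above background on every array. At day 8, 3 were at least 2-fold lower (Thy1, Itgb1 and Eng, background 9.54%) and 2 higher (Ly6a and Nt5e, background 12.2%). Nt5e encodes CD73, which the study names as an exception to the likeness of CMPs to mesenchymal stem cells. It is therefore a mesenchymal marker and not one of CMP identity. Of the 9, 6 were below the control, and the median change was -0.54. Ly6a was at 4.65 in the control and 6.69, 6.96 and 7.35 at days 4, 6 and 8. Thy1 fell by 1.78 ± 0.20 by day 8 and Pdgfra, the fibroblast receptor, was higher by 0.71 ± 0.06. Of 6 leukocyte markers, 2 were at least 2-fold higher (background 12.2%) and none lower (background 9.54%) at day 8. The summed level of these 6 was 0.04 in the control and between -0.12 and -0.06 later. Of 4 epicardial markers, 2 were at least 2-fold lower (background 9.54%) and 1 higher (background 12.2%) at day 8. Upk3b was 8.58-fold lower, and Wt1, not well above background at day 8, was at least 10.9-fold lower. Msln was 87.2-fold higher. Of 4 measured cardiomyocyte markers, 1 was at least 2-fold lower and 1 higher at day 8, beside the same backgrounds. Tnnt2 was 3.04-fold lower. Myl7, not well above background in the control, was at least 2.94-fold higher.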

How the data were processed

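RNA of 4 conditions was measured, 1 SurePrint G3 mouse array each, with 250 ng of RNA labelled with Cy3. The authors extracted spot intensities with Feature Extraction (10.7.3.1 in the file headers, 9.5.3 in the submitters' processing notes), and the deposited intensity is background-subtracted. The authors' normalized table holds deposited log2 values, which are the log2 of that intensity minus a constant per array (median of all probes -4.22, -4.08, -4.09 and -3.96 in the order control, day 4, day 6, day 8).

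Here control spots (3671) and outlier spots (87 to 106 per array) were left out, the log2 processed intensity was averaged over the spots of a probe, and each array was set to 0 at its 75th percentile. A probe was kept if any array showed it well above background (35547 of 55681), and kept probes were averaged per gene name. In a comparison, genes well above background on at least 1 of its arrays were used, a rule settled after a first look at the values, and the dim side entered at the higher of its own signal and the lowest signal well above background. A call is a change of at least 2-fold. All members, classes, lists and rules were chosen with earlier results of these data known. Genes named are every measured fibrillar and type IV chain, other collagens past 2-fold on any day, types VI, VIII, XII, XIV, XV and XVIII, and of each list of partner genes Serpinh1, Lox, P4ha1 to P4ha3, Plod2, Ddr1, Ddr2, Itga11 and the 3 largest rises and falls; other named genes are markers or were chosen after their values were seen. Partner genes keep the array's older symbols (such as Gpr56). The scripts were tested on simulated data. Alternatives were quantile normalization with and without a normexp background correction (offset 50), other scales, filters, probe rules and classes, and the authors' table. Python 3.11.15, numpy 2.4.6, pandas 2.3.3, R 4.3.3 and limma 3.58.1 were used. Probe positions are mm9, and promoters are RefSeq windows on GRCm38.p6. Windows were not found for Col12a1, Col14a1, Col1a1, Col22a1, Col2a1, Col4a3 and Col5a2.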

Additional observations from a re-analysis of the deposited data

How the results depend on the processing

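The number of collagens at least 2-fold lower at day 8 ranged from 9 to 13 over the alternatives, and the number higher from 3 to 4, apart from 7 when probes were counted in place of genes. The class medians, all in log2 units, moved with more choices. With normexp and quantile normalization the medians against the control at days 4 and 8 were -0.32 and -0.34 for the fibrillar class and -0.53 and -0.43 for the basement membrane class, and -0.10 at day 8 for the other class. When arrays were scaled to their own median, all genes shifted by a median of -0.14 at day 4 and -0.27 at day 8. The medians at day 4, at day 8 and between days 4 and 8 were then -0.72, -0.87 and -0.15 for the fibrillar, -0.90, -0.81 and 0.21 for the basement membrane and -0.20, -0.50 and 0.027 for the other class. Relative to that shift they were as in the report (fibrillar -0.59 at day 8). With quantile normalization alone, the fibrillar median between days 4 and 8 was 0.087, the basement membrane median at day 4 was -0.90 and the other class had -0.18 at day 4 and -0.50 at day 8. With the 75th percentile taken over probes measured on all 4 arrays, the day 8 medians were -0.49 (fibrillar), -0.43 (basement membrane) and -0.12 (other).

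With no filter on dim probes, the fibrillar medians were -0.41 at day 4 and -0.14 between days 4 and 8, the basement membrane median was -0.94 at day 4, and the other class had 0.059 at day 4, -0.073 at day 8 and, with its sign turned, -0.14 between days 4 and 8. With the probes limited to those well above background everywhere, the fibrillar medians were -0.75 at day 4 and -0.14 between days 4 and 8, the basement membrane median at day 8 was -0.67, and the other class had 0.035 at day 4 and 0.093 at day 8, the latter with its sign turned. With the brightest probe of each gene, the day 8 medians were -0.70 for the basement membrane class and 0.043, with its sign turned, for the other class. With probes in place of genes they were -0.39 and -0.0015, and with Col7a1, Col15a1 and Col18a1 counted as basement membrane chains the other class had -0.072. The cause of these moves was not tested beyond the genes each alternative adds or drops.

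Among single genes at day 8, the sign turned for those close to the control. Under normexp with quantile normalization the changes were 0.10 for Col1a1, 0.035 for Col1a2, 0.18 for Col3a1 and -0.071 for Col9a2. Under quantile normalization alone they were 0.092, 0.056, 0.18 and -0.16. Col9a2 was at -0.17 with the array median as the scale, and Col15a1 at 0.043 by its brightest probe. The authors' normalized values moved no result. They are the same processed signal minus a constant per array, so they could not act as a separate check.

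No paired analysis was possible because there was 1 array per condition, which also left no replicate to leave out. Dim probes limit Col4a3, Col9a1, Col10a1, Col11a2, Col19a1, Col25a1 and Col28a1, which were not well above background on every array.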

Other observations

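A further collagen gene stood on the array under an older name. RefSeq lists Emid2 as a synonym of Col26a1, so the naming rule did not take it. Emid2 was not well above background in the CMP control or at day 4, and was at -4.68 at day 6 and -4.31 at day 8. It was at least 2.04-fold higher at day 8 than in the control, and the value was chosen after it had been seen.

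Proteins with a collagen-like stretch that are not counted as collagens were measured too. Colec12, a scavenger receptor, was at 1.99 in the control and 2.64, 2.74 and 2.83 at days 4, 6 and 8. Colec11, a soluble lectin, was at 2.12, -0.46, 0.49 and 1.33, lowest at day 4 with a partial return, as Col14a1 was. Colq, the tail of acetylcholinesterase, was at -3.83, -3.50, -3.67 and -3.04, and Emid1 was at -2.84, -1.81, -1.92 and -2.88.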
